A study of Rattus norvegicus with 2 samples.

Results

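Chromosome 13 of the rat carries alternating stretches of high and low 8-oxoguanine (8-oxoG) signal, and this account describes them from its array probes. The chromosome was covered by 9498 of the 235872 probes kept on the arrays, which is 4.03% of them. Its members are all probes that the array design places on chromosome 13 of the rat assembly rn4, after removal of control spots and of spots flagged by the scanner software as outliers in one of the channels of one of the arrays, and with repeated spots of a probe averaged. The probes lie between bases 4692 and 111143127, with a median interval of 8165 bases between neighbouring starts. The longest interval without a probe start runs from 64773211 to 65276246. The chromosome was singled out because its 1 Mb averages showed the highest correlation between the rats among 21 chromosomes, so all levels of IP over input given here are descriptions and none is a test.

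Kidney DNA of 2 male Wistar rats, 5 weeks old and untreated, was precipitated with the 8-oxoG antibody N45.1 and hybridised on 1 two-colour array per rat. Precipitated DNA (IP) carried Cy5 and input DNA of the same digest, without precipitation, carried Cy3. Both arrays form 1 group of normal kidney, with no control group, no precipitation with an unrelated antibody and no dye swap, so an effect of the dyes and an enrichment by the antibody cannot be told apart. Genomic DNA holds no expression markers, so the labelled tissue could not be checked, and the DNA of all cell types of the kidney is pooled in each sample.

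8-oxoG is guanine oxidised by reactive oxygen species, and it pairs with adenine as well as with cytosine, so that an unrepaired lesion can turn a G:C pair into a T:A pair. The lesion is removed by base excision repair, which the glycosylase OGG1 starts, while MUTYH removes the adenine inserted opposite to it. In the RefSeq table of the rat assembly GRCr8, chromosome 13 bears Parp1, which encodes a sensor of DNA strand breaks, and Lbr, which encodes a lamin B receptor of the inner nuclear membrane. The array files pair no probe with a gene and place probes on rn4, so no level is given for any gene.

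The 8-oxoG level of a probe is the log2 ratio of its IP to its input intensity, after subtraction of the median ratio of the array. A level of 0 thus marks the middle of an array, and a negative level does not mean that 8-oxoG was missing. On chromosome 13 the median IP intensity was 94.4 on replicate 1 and 71.0 on replicate 2, and the median input intensity was 87.1 and 68.8. Of the 9498 probes, 7434 were well above background wherever they were read, in IP and input of each rat, which is 78.3% against 78.2% of all placed probes, and no probe of the chromosome was saturated. The number of arrays, 2, limits the precision of every level.

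As a whole the chromosome lay close to the array median. Its mean level was 0.05 on replicate 1 and -0.04 on replicate 2, giving 0.0056 ± 0.07 (SD, n = 2). The means of the rats thus fell on opposite sides of 0, and the spread between them exceeded their mean. The median over its probes was above 0 on both arrays, at 0.051 on replicate 1 and 0.035 on replicate 2. Only chromosomes 2 and 11 had a higher mean over both rats, at 0.032 and 0.029. Single probes scattered far more widely, with an SD over probes of 0.98 on replicate 1 and 1.25 on replicate 2. The rats shared the side of 0 at 6118 probes (64.4%), against 63.1% of all placed probes. Where a probe was spotted more than once, the SD between its spots on 1 array was 0.24 on replicate 1 and 0.23 on replicate 2, well below the spread between probes.

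In averages over 1 Mb the chromosome separated into a high first part and a low last part. The 112 fragments held between 22 and 150 probes, with a median of 80. Their levels, averaged over the rats, ran from -0.40 to 0.70 with quartiles of -0.22 and 0.33 and a median of -0.03. In 50 fragments both rats were above 0 and in 51 both were below, so that 101 of 112 (90.2%) lay on the same side, where the share over all 2731 fragments of chromosomes 1 to 20 and X was 81.7%. Chromosomes 10 and 19 had higher shares, of 92.8% and 91.7%. Above 0 on both arrays were 32.8% of all fragments, and below 0 on both were 48.9%. The 11 fragments with opposite signs all had small means, the largest being 0.11 in size, and in 8 of them replicate 1 was the one above 0.

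**Figure D1:**
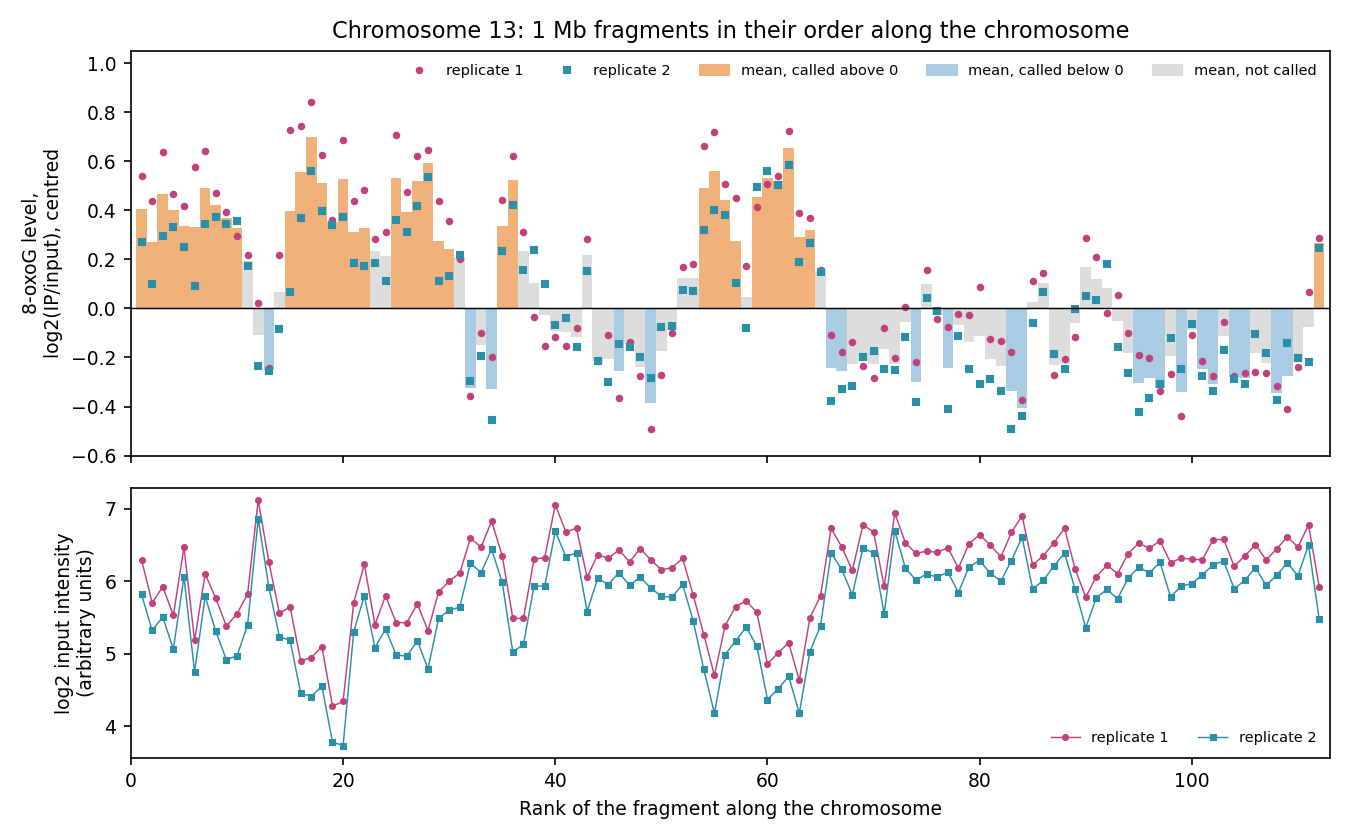
The upper panel plots the 8-oxoG level, log2(IP/input) centred on the array median, of the 112 fragments of 1 Mb in their order along chromosome 13, with points for each rat and bars for their mean, coloured by the limma call. The lower panel plots the mean log2 input intensity of the same fragments. Levels above 0 fill most of the first 65 fragments and levels below 0 most of the remainder, and the input curves of both rats run in parallel and dip where levels are high.

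A limma fit of each fragment against 0 over all 2731 fragments called 37 fragments of chromosome 13 above 0 (33.0%; 20.9% of all fragments) and 21 below (18.8%; 20.5% of all fragments), at a Benjamini-Hochberg adjusted p under 0.05. The chromosome was chosen on this contrast, so nothing is read from these shares. All 37 and all 21 had the same sign on both arrays. The fit pooled the spread over all fragments and gave each the same standard error of 0.10, so that a call amounts to a mean beyond about 0.24 in size. Other processing gave other counts. With normexp correction, which here adds an offset of 50 to all corrected signals, limma called 0 fragments above 0 and 3 below (2.68%). The shares of all fragments were then 0.26% above and 3.63% below, so calls were few on all chromosomes together. At an unadjusted p under 0.05 the counts on chromosome 13 were 2 and 35 with normexp correction, against 42 and 33 in the processing described here. The count below 0 also changed without another background correction, to 7 with medians over probes and to 13 with only probes well above background. These are 6.25% and 11.6% of the fragments of chromosome 13, where the shares of all fragments were 8.28% and 15.6%. The count above 0 was 38 in both cases (33.9%), against 21.6% and 21.9% of all fragments.

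Among fragments with 50 or more probes and an equal sign in the rats, the 5 highest lay in 3 places of the first part of the chromosome. The highest was that from 16 to 17 Mb, at 0.84 on replicate 1 and 0.56 on replicate 2, or 0.70 ± 0.20 (SD, n = 2; limma adjusted p = 6.93e-09). The fragment from 61 to 62 Mb followed with 0.72 and 0.58, or 0.65 ± 0.10 (SD, n = 2; limma adjusted p = 6.70e-08). Next to these, the fragments from 15 to 16 Mb (0.74 and 0.37) and from 60 to 61 Mb (0.54 and 0.50) were also among the 5 highest, so that both peaks spanned more than 1 fragment. The remaining one, from 35 to 36 Mb, stood at 0.62 and 0.42 in a short high stretch that begins next to a low fragment from 33 to 34 Mb. The order of these 5 is not firm, because each differed from the next by less than the larger SD of the pair. Fragments with fewer probes were as high in other places, with means of 0.59 from 27 to 28 Mb (45 probes) and 0.56 from 54 to 55 Mb (35 probes). The p-values given for the 2 highest use the standard error pooled over all fragments. They belong to fragments picked by their height, so they are a description and no test.

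The lowest fragments were nearer to 0 than the highest, and 4 of the 5 lay beyond 80 Mb. The fragment from 83 to 84 Mb had -0.37 on replicate 1 and -0.44 on replicate 2, or -0.40 ± 0.05 (SD, n = 2; limma adjusted p = 0.00103). Its left neighbour, from 82 to 83 Mb, stood at -0.18 and -0.49, and the fragments from 98 to 99 Mb (-0.44 and -0.25) and from 107 to 108 Mb (-0.32 and -0.37) were close to it. The exception in position was the fragment from 48 to 49 Mb, at -0.49 and -0.28. All 10 named fragments were on the same side in both rats, as the rule for naming them requires. The p-value of the fragment from 83 to 84 Mb also uses the pooled standard error and belongs to a fragment picked by its level, so it is a description.

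The rats differed in the height of many fragments. Replicate 1 was higher in 84 of the 112 fragments, by 0.11 on average with an SD over fragments of 0.17. This difference was 0.19 in the fragments above 0 on both arrays and 0.03 in those below 0 on both, so replicate 1 was on average the higher one where levels were high. The least-squares slope of replicate 2 on replicate 1 over fragments was 0.70, a value that scatter on replicate 1 also lowers. The SD over fragments was 0.346 on replicate 1 and 0.279 on replicate 2. The rats differed most from 14 to 15 Mb, where 45 probes averaged 0.73 on replicate 1 and 0.07 on replicate 2. That fragment was called above 0 with only 1 rat clearly high, since the fit does not use the spread of single fragments.

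**Figure D2:**
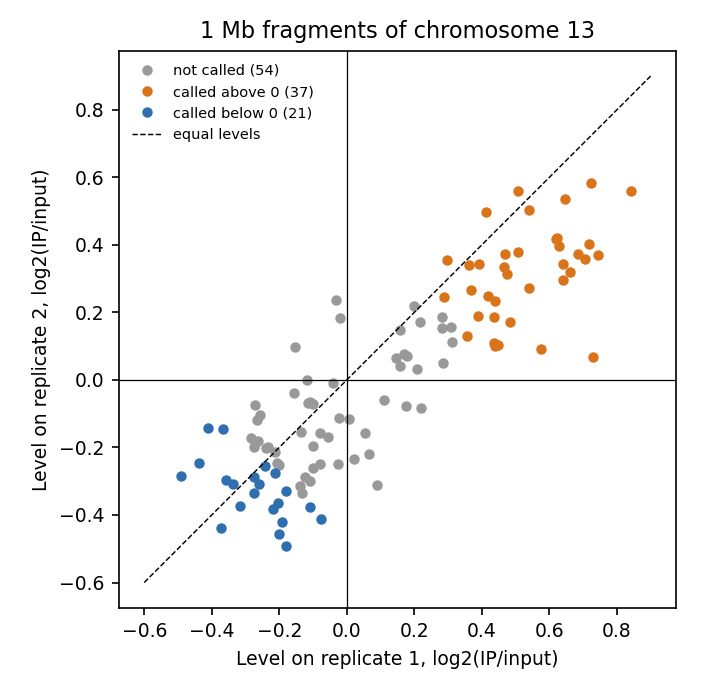
Each point is 1 of the 112 fragments of 1 Mb of chromosome 13, with its level on replicate 1 on the x axis and on replicate 2 on the y axis, both as log2(IP/input) centred on the array median, coloured by the limma call. The called fragments lie in the upper right (37) and lower left (21) quadrants, and most high fragments lie below the dashed line of equal levels because replicate 1 was higher there.

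Over the 112 fragments the rats correlated at 0.870 (Spearman 0.838), the value by which the chromosome was picked. Chromosomes 20 and 16 came next, at 0.861 and 0.852. The fragments of both rats share the same probes and nearly the same input brightness, and neighbouring fragments are not independent, so the correlation is given without a test. It grew with the length averaged over, from 0.37 for single probes to 0.50 for 50 kb, 0.62 for 200 kb, 0.80 for 500 kb and 0.91 for 2 Mb. The agreement of the rats was thus seen in averages over many probes and much less at single probes. Chromosome 13 was not above chromosomes 14 and 15, which are close in length, at every length averaged over. At 2 Mb it had 0.911 against 0.880 on chromosome 14 and 0.925 on chromosome 15. At 200 kb it had 0.625 against 0.633 and 0.587. For single probes chromosomes 13 and 14 both had 0.368, while at 50 kb and 500 kb chromosome 13 was above both. The level of a fragment on replicate 1 also resembled the level on replicate 2 of other fragments nearby. This correlation was 0.72 at a distance of 1 Mb, 0.45 at 3 Mb, 0.33 at 5 Mb and 0.22 at 10 Mb, so that high and low levels extended over several Mb.

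In blocks of 10 Mb the high signal was concentrated in the first 30 Mb and between 50 and 60 Mb. The mean level was 0.48 on replicate 1 and 0.28 on replicate 2 over the first 10 Mb, where 10 of 10 fragments were called above 0. It was 0.33 and 0.12 from 10 to 20 Mb, and 0.43 and 0.21 from 20 to 30 Mb. The fourth block, from 30 to 40 Mb, was mixed, with 2 fragments called above and 2 below 0. The block from 40 to 50 Mb was low on both arrays, at -0.22 and -0.16, and was followed by a second high block, from 50 to 60 Mb, at 0.36 and 0.19. The block from 60 to 70 Mb was again mixed, with 4 fragments called above 0 and 2 below.

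From 70 Mb onwards all blocks of 10 Mb had means below 0 on both arrays, apart from the last 2 fragments of the chromosome. The lowest was that from 100 to 110 Mb, at -0.27 on replicate 1 and -0.24 on replicate 2, where 10 of 10 fragments were below 0 in both rats and 6 were called. The final fragment, beyond 111 Mb, had 22 probes and rose to 0.29 and 0.25, the single fragment called above 0 in the last 47. Past the end of the last long high stretch at 64773270, 4623 probes averaged -0.14 and -0.21, or -0.17 ± 0.05 (SD, n = 2). Up to that base, 4875 probes averaged 0.23 and 0.11, or 0.17 ± 0.08 (SD, n = 2). This division was drawn from the levels themselves, so that the second part could hold no long rich region, and the values of both parts are a description. The SD over fragments was 0.15 in the second part and 0.29 in the first, and the correlation between the rats was 0.60 and 0.85. Other measures changed along with the level, since the median interval between probes was 10625 bases in the first part and 6592.5 in the second, and the mean log2 input intensity rose from 5.86 to 6.41 on replicate 1 and from 5.45 to 6.08 on replicate 2. Their part in the levels was not tested.

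To find stretches of high and low signal without a grid, the level of each probe was replaced by the mean of its neighbours up to 500 kb to either side, and runs of consecutive probes on one side of 0 were taken as 8-oxoG-rich or 8-oxoG-depleted regions. Rich regions covered 48.3% of the summed length of all regions but held 40.8% of the probes. There were 7 rich regions of 1 Mb or longer, of which 3 exceeded 10 Mb, and 10 depleted ones, of which the longest was 9.14 Mb. The longest regions were thus rich ones, whereas the median length of regions of 1 Mb or longer was 3.13 Mb for rich and 4.23 Mb for depleted ones. With normexp background correction these regions numbered 10 rich and 5 depleted. The rats agreed in the side of the smoothed profile at 88.2% of the probes. Drawn on each rat by itself, rich regions covered 52.7% on replicate 1 and 47.5% on replicate 2, and regions over 10 Mb numbered 3 and 1.

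The 3 longest rich regions lie in the first part of the chromosome. The region from 13426503 to 30676128 is 17.2 Mb long, and its 1080 probes averaged 0.49 on replicate 1 and 0.25 on replicate 2. The region from 50762545 to 64773270, of 14.01 Mb, averaged 0.40 and 0.26, and that from 4692 to 11064881, of 11.1 Mb, averaged 0.46 and 0.26. These 3 long regions had almost the same height within each rat, and differed between them by less than between the rats. The short rich region from 34039682 to 37169954, of 3.13 Mb, was just as high, at 0.48 and 0.30. The last rich region over 3 Mb, from 88699968 to 91765428, is the one such region in the second part, and it was lower than the others on both arrays, at 0.20 and 0.10. With normexp background correction it turned to -0.043, the one named level whose sign depended on the processing. The mean of the whole chromosome was then -0.048, and the depleted regions over 3 Mb lay between -0.105 and -0.085.

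Depleted regions over 3 Mb ran from -0.28 to -0.195 in mean over the rats, and rich ones from 0.15 to 0.39. Without the last of the rich regions over 3 Mb, the others ran from 0.33 to 0.39. The depleted regions from 93350791 to 102230839 (8.88 Mb) and from 102330284 to 111112651 (8.78 Mb) together took up nearly all of the end of the chromosome. They averaged -0.26 and -0.30 in the former and -0.24 and -0.22 in the latter. The longest, from 65276246 to 74417440, averaged -0.15 on replicate 1 and -0.24 on replicate 2, and it starts at the far side of the longest interval without probes. The region from 43291725 to 50739398, of 7.45 Mb, separates the high stretches of the first part, at -0.27 and -0.20. The region from 79329861 to 84475129 showed the largest difference between the rats among the depleted regions over 3 Mb, at -0.14 and -0.36, and holds the lowest fragment. The region from 30720438 to 34026253, at -0.18 and -0.27, is bounded on both sides by rich regions over 3 Mb.

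**Figure D3:**
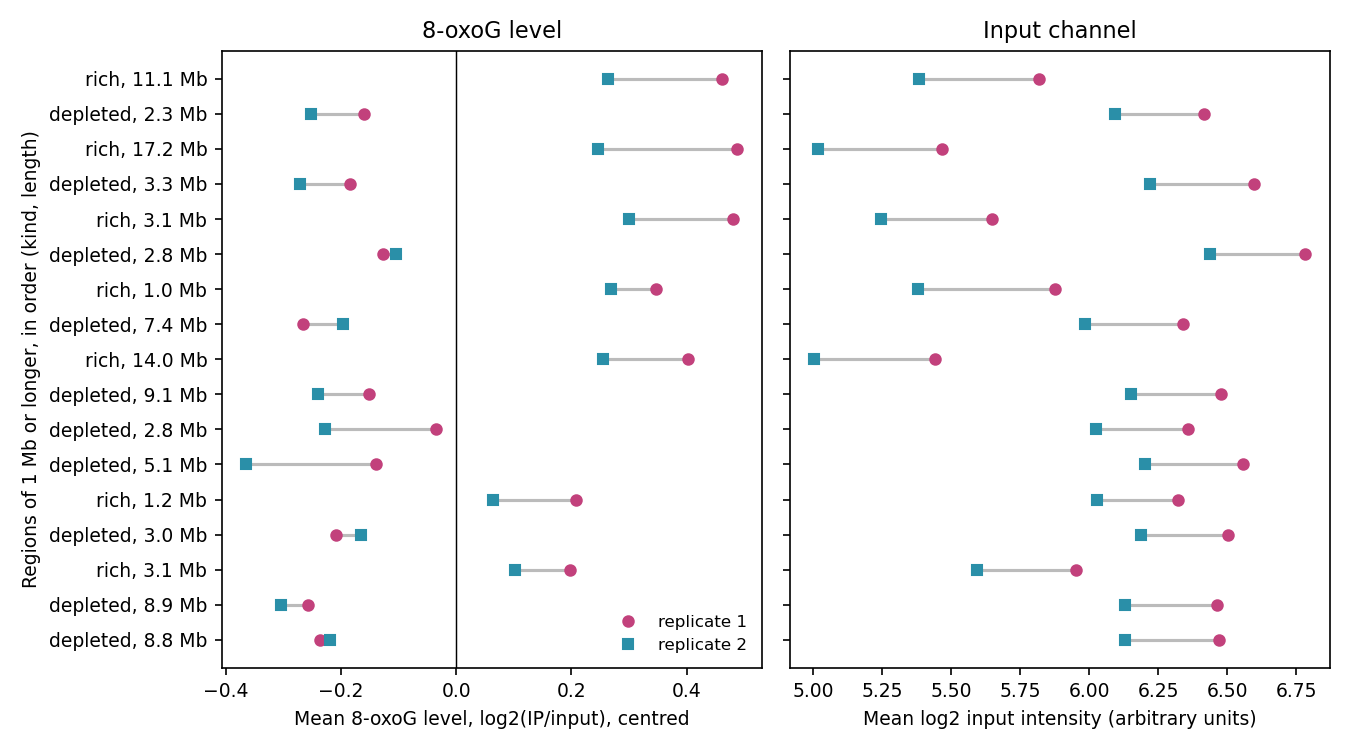
The left panel plots the mean 8-oxoG level, log2(IP/input) centred on the array median, of each of the 17 regions of 1 Mb or longer on chromosome 13, in order from top to bottom, with 1 point per rat joined by a line. The right panel plots the mean log2 input intensity of the same regions. In every region both rats fall on the same side of 0, and the input is lower in most rich regions than in the depleted ones.

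Changes between high and low signal were steep at some places. Over neighbouring fragments, the largest rise was 0.66 ± 0.03 (SD, n = 2), from the fragment starting at 33 Mb to the one starting at 34 Mb, and it measured 0.64 on replicate 1 against 0.69 on replicate 2. The largest fall was -0.54 ± 0.03 (SD, n = 2), from the fragment starting at 30 Mb to the next, with -0.56 and -0.51. Both steps flank the same depleted region and were nearly of the same size in both rats. The other 4 named rises lay between 0.36 and 0.43 and the other 4 named falls between -0.34 and -0.43. Most steps were small, with a median size of 0.13 over 111 pairs of neighbours, and 76 pairs (68.5%) moved in the same direction on both arrays.

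The position of the edges was then compared between the rats. An edge is a sign change of the smoothed profile of 1 rat with at least 1 Mb of unbroken signal on both sides. Replicate 1 had 10 such edges, 5 upward and 5 downward along the chromosome, and the nearest sign change of the same direction on replicate 2 lay at a median distance of 134 kb. Within 500 kb a partner was found for 9 of the 10. For edges drawn on replicate 1 the closest pair was the downward edge at 85745258 on replicate 1 and 85732064 on replicate 2, and the one without a near partner was the downward edge at 37129913, whose nearest counterpart lay at 39359850. The fragments between these bases went apart, at -0.03 on replicate 1 but 0.24 on replicate 2 from 37 to 38 Mb and -0.15 and 0.10 from 38 to 39 Mb. Replicate 2 had 5 such edges, with a median distance of 128 kb and a partner within 500 kb for all 5. One of them, the downward edge at 91772199, had its partner at the same base. The smoothed profiles changed sign 100 times on replicate 1 and 77 times on replicate 2 in all, mostly between runs far shorter than 1 Mb, so a near partner is found more easily than among long edges alone.

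Levels read on the rat that did not draw the edge changed across it within about 1 Mb. For edges drawn on replicate 1, the level of replicate 2 was -0.22 in the 500 kb on the depleted side and 0.01 in the 500 kb on the rich side, and it was 0.16, 0.20 and 0.12 in the following bins of 500 kb, up to 2000 kb. For edges drawn on replicate 2, the level of replicate 1 was 0.05 in the 500 kb on the depleted side and 0.29 on the rich side, followed by 0.37, 0.39 and 0.61. The last of these values rests on 4 of the 5 edges, and the curve read on replicate 2 went down over the same distance. The spread over edges was wide, and the SDs of the 2 bins next to the edge overlapped.

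**Figure D4:**
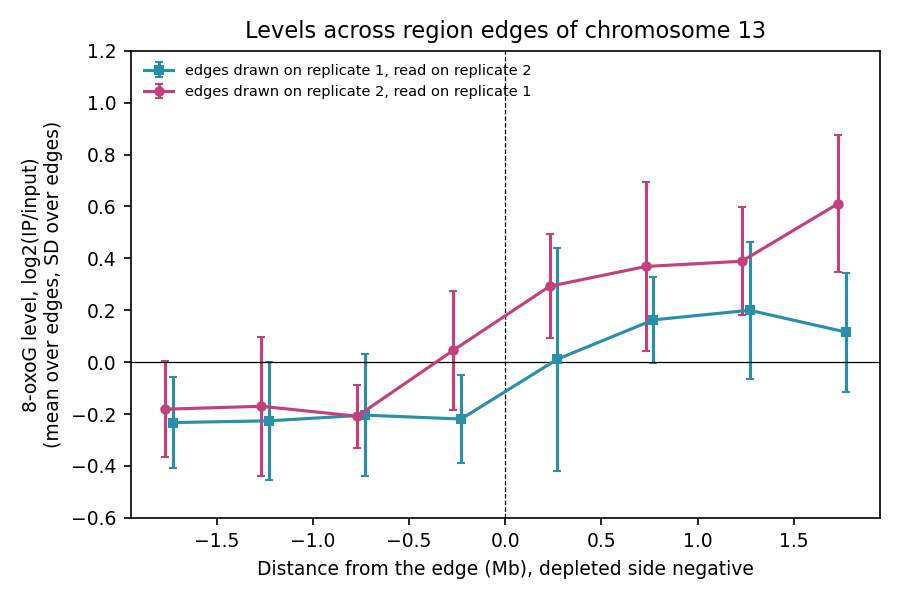
The mean 8-oxoG level, log2(IP/input) centred on the array median, is plotted against the distance in Mb from the edges between depleted (left) and rich (right) regions of chromosome 13, in bins of 500 kb, with the SD over edges as error bars. Edges were drawn on 1 rat and levels read on the other, and both curves pass from below 0 beyond 0.5 Mb on the depleted side to above 0 beyond 0.5 Mb on the rich side.

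Because a region drawn on an array is high on it by construction, the contrast was also read on the rat that had not drawn it. Probes in the rich regions of replicate 1 averaged 0.19 on replicate 2, and those in its depleted regions averaged -0.24, a difference of 0.43 over 4343 and 5155 probes. In the opposite direction, probes in the rich regions of replicate 2 averaged 0.38 on replicate 1 and those in its depleted regions -0.16, a difference of 0.55. The contrast was thus present in both rats without the array that drew the regions, although both readings share the probes, and the input channel ran nearly in parallel in both rats. The chromosome was also picked for its agreement between the rats, a choice that favours a contrast read in this way. The values are therefore a description and not an independent check. With normexp background correction the mean of both differences was 0.10, in place of 0.49.

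The contrast was seen over the whole distribution rather than in a few probes, though not by an equal amount. On replicate 2, 59.8% of probes were above 0 in rich regions and 45.0% in depleted ones, and on replicate 1 these shares were 66.1% and 43.3%. The median moved by 0.34 and 0.49. At the percentiles read from the 5th to the 95th all shifts had the same direction, from 0.34 to 0.61 on replicate 2 and from 0.47 to 0.68 on replicate 1. The shift was largest at the 5th percentile on replicate 2 and at the 90th on replicate 1, and on replicate 2 it was smallest at the median. Levels above 1 made up 23.6% against 12.7% of probes on replicate 2 and 26.6% against 9.02% on replicate 1. Many probes nevertheless went against their region, since 13.8% and 6.41% of probes in rich regions lay below -1.

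Brightness of the input channel moved together with the level. In rich regions the mean log2 input intensity was lower by 0.84 on replicate 2 (5.30 against 6.14) and lower by 0.72 on replicate 1 (5.69 against 6.42), with the regions again drawn on the other rat. The IP channel was not brighter in rich regions either: its log2 intensity was 5.56 against 5.96 on replicate 2 and 6.09 against 6.27 on replicate 1. The higher ratio in rich regions thus went with dimmer signals in both channels, the input being the more reduced. Over the 112 fragments the level correlated with the input at -0.77 on replicate 1 and -0.79 on replicate 2. It did so equally with the input of the other rat, at -0.78 and -0.77, and the input of both rats correlated at 0.997. The denominator of the ratio was therefore nearly the same in both rats, and the correlation of the IP channel between them was 0.90. Spots well above background in the input channel were fewer in rich regions, at 79.4% against 88.6% on replicate 2 and 81.4% against 89.1% on replicate 1, and probes were spaced wider, with median intervals of 10701 against 6722 bases for the regions of replicate 1.

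Within probes of like input brightness the contrast had the same direction and was smaller on average over the classes. Probes were divided into 5 classes of nearly equal size by their input intensity on the rat that drew the regions. For regions of replicate 1, the level of replicate 2 was higher in rich than in depleted regions by 0.41, 0.44, 0.24, 0.25 and 0.16 from the dimmest to the brightest class, with a mean of 0.30 in place of 0.43. For regions of replicate 2, the difference on replicate 1 was 0.36, 0.64, 0.53, 0.49 and 0.27, with a mean of 0.46 in place of 0.55. In all 5 classes and both directions rich regions were thus the higher ones, and the difference was lowest in the brightest class. In the class next to the dimmest it was above the value over all probes, in both directions. Levels also declined with brightness inside both kinds of region, except from the dimmest to the next class in the rich regions of replicate 2, where they went from 0.48 to 0.68. The share of probes in rich regions declined from 58.7% in the dimmest to 35.1% in the brightest class for regions of replicate 1, and from 52.4% to 29.3% for those of replicate 2. Whether base composition or copy number of the probes took part was not tested, as no rn4 sequence was used here.

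**Figure D5:**
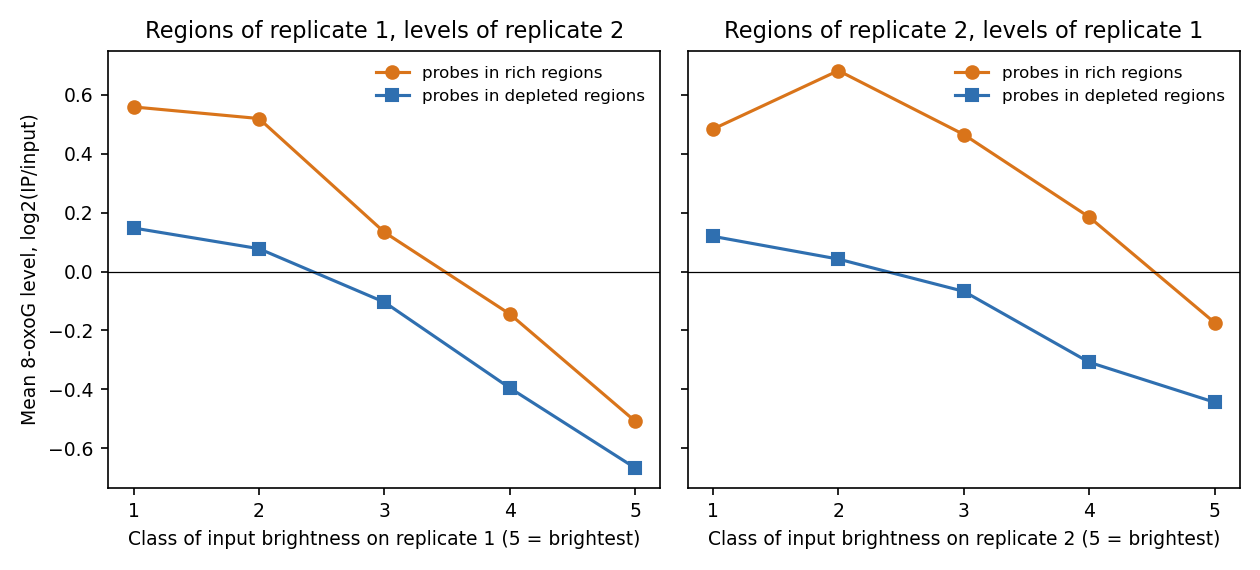
The mean 8-oxoG level, log2(IP/input) centred on the array median, is plotted for probes of chromosome 13 in rich and in depleted regions by class of input brightness, from dimmest (1) to brightest (5), each class holding nearly the same number of probes. Regions and classes come from replicate 1 and levels from replicate 2 on the left, and the reverse on the right, and the rich line lies above the depleted line in every class. From the second class on, all lines decline with brightness.

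Single probes with extreme levels in both rats occurred in both kinds of region. Above 1 on both arrays were 675 probes (7.11%; 5.84% of all placed probes) and below -1 on both were 385 (4.05%; 4.67% of all placed probes). Of the 3484 probes in regions that were rich in both rats, 481 were above 1 and 66 below -1 on both arrays, whereas of the 4892 probes in regions depleted in both rats 129 were above and 280 below. The regions were drawn from these same levels, so these counts are a description.

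Among probes well above background in all 4 readings, the 5 highest by the rat nearer to 0 reached levels of at least 2.46 in both rats. The highest, A_86_P05031006 at bases 4081677 to 4081736, had 2.85 on replicate 1 and 2.78 on replicate 2 and lies in the first long rich region. Probe A_86_P05091106 at 35713825 to 35713884 had 2.95 and 2.56 and lies in the short rich region around 35 Mb. Probe A_86_P05212835 at 79943683 to 79943742 had 2.47 and 2.46 although the smoothed level around it was -0.22, so it stood out alone against a depleted region. In the same depleted region, A_86_P05212220 at 79775536 to 79775595 was the lowest probe, at -3.00 and -3.79. The 5 lowest probes lie at smoothed levels below 0. Their log2 input intensities, between 8.05 and 9.46 on replicate 1, were high by selection, since a probe with a low ratio and an IP signal above background must have bright input.

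Chromosomes 14 and 15, which end at bases 112174180 and 109754827 and so are close in length, had 9232 and 8725 probes and serve as a comparison. The SD over fragments was 0.284 on chromosome 14, 0.297 on chromosome 15 and 0.302 on chromosome 13, the highest of the 21 chromosomes. On chromosome 13 it was 0.346 on replicate 1 and 0.279 on replicate 2, so these 3 chromosomes differed by less than the rats did. On chromosome 15 the SD was 0.318 on replicate 1 and 0.303 on replicate 2, so on replicate 2 it was higher than on chromosome 13. Limma called 33 fragments above 0 on each of chromosomes 14 and 15, and 27 and 18 below. Both rats were on the same side in 81.4% and 83.6% of their fragments, against 90.2% on chromosome 13. This share was higher on chromosomes 10 and 19, at 92.8% and 91.7%. The contrast read on the other rat was 0.40 and 0.52 on chromosome 14 and 0.39 and 0.52 on chromosome 15, where chromosome 13 had 0.43 and 0.55. Contrasts of like size were thus read on these 3 chromosomes. Chromosome 10, which ends at 110717437 and is the nearest in length, had a lower SD over fragments (0.167), a lower correlation between the rats (0.606) and contrasts of 0.29 and 0.39. Differences among these chromosomes were not tested because the choice of chromosome 13 used the same values.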

How the data were processed

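8-oxoG was measured in kidney DNA of 2 rats, with 1 two-colour Agilent rat CGH array per rat. DNA was cut with a restriction enzyme, precipitated, ligated to adaptors and amplified by PCR. The authors used Agilent Feature Extraction 10.5.1.1 to subtract the background, remove spatial trends and match the dyes by lowess, and deposited the resulting intensity per spot and channel, as well as intensities before dye normalization and median signals of spot and background. A table of log2 values was also deposited by the authors, equal to the uncentred log2 ratio of the processed intensities. No aligner is involved, and the files name rn4 positions.

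Levels are log2(IP/input) centred on the median of all spots that are not controls, with no loess or quantile step. Of 9573 spots on chromosome 13, 13 had an outlier flag and were left out. Fragments of 1 Mb were assigned by probe start. They were fitted against 0 by limma 3.58.1 in R 4.3.3 (lmFit and eBayes, two-sided, Benjamini-Hochberg over 2731 fragments), with 1 residual degree of freedom per fragment, and the step was tested on simulated data. Levels, regions and edges were computed with pandas 2.3.3, numpy 2.4.6, scipy 1.17.1 and statsmodels 0.14.6 in Python 3.11.15, and figures drawn with matplotlib 3.10.9.

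Fragments named are the 5 highest and 5 lowest with 50 or more probes and an equal sign in the rats, steps the 5 largest rises and falls between neighbours with at least 20 probes, regions those of 3 Mb or longer, and probes the 5 highest and 5 lowest by the array nearer to 0. The final fragment, that from 14 to 15 Mb, the high fragments with fewer than 50 probes, the 10 Mb blocks and the division at 64773270 fall outside this rule. They were chosen after their values were seen, as were chromosomes 2, 10, 11 and 19 for comparison. The chromosome, the lists and the tests were chosen with earlier results of these data known. Of 57 gene symbols listed for the chromosome, 53 were found in the GRCr8 table, all 53 on chromosome 13, and gene levels were not analysed here because no rn4 annotation was used. Some genes are not reported here. Alternatives covered background correction (normexp on median signals, offset 50), the table of the authors, dye normalization, filters, centring, trends on brightness, fragments, windows and each rat alone.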

Additional observations from a re-analysis of the deposited data

How the results depend on the processing

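No paired analysis was possible because all samples belong to 1 group. Of 114 values of the main results under alternatives, 93 kept within the spread between the rats, for counts within 1.5 times, and for the correlation, which has no such spread, within 0.05. With normexp background correction limma called 0 fragments above 0 and 3 below (0.26% and 3.63% of all fragments). The correlation between the rats was then 0.812, the SD over fragments 0.066 and the rich share 33.4%. Depleted regions of 1 Mb or longer numbered 5, and the contrast read on the other rat was 0.10. The region from 88699968 to 91765428 turned to -0.043, where the mean of the whole chromosome was -0.048. Before dye normalization the SD was 0.36 and the contrast 0.58. Counts of fragments called below 0 were 13 with only probes well above background (11.6%; 15.6% of all fragments) and 7 with medians over probes (6.25%; 8.28% of all fragments). The count was 8 when levels beyond 0.25 on both arrays were required, and its share over all fragments was not taken. Fragments of 500 kb gave 57 calls above 0 (25.6%; 15.9% of all fragments) and a correlation of 0.797. Fragments of 2 Mb gave 19 above (33.9%; 22.5% of all fragments), and a window of 250 kb gave 16 depleted regions. After removal of the trend on input intensity, an alternative chosen after seeing the data, the correlation was 0.811, the SD 0.25 and the contrast 0.39, with 26 fragments called above 0 and 14 below. The cause of these shifts was not tested, except that smaller or larger fragments change the number tested. Each rat alone gave mean levels from -0.04 to 0.05, SDs from 0.28 to 0.35, rich shares from 47.5% to 52.7%, 7 to 8 rich and 12 to 13 depleted regions, and contrasts from 0.47 to 0.58, then drawn and read on the same array. Of 168 values for the 21 named levels, 132 moved by less than the spread between the rats, 35 by more and 1 changed sign. Chromosome 13 ranked second in correlation before dye normalization and with only probes well above background, and second in SD with normexp. Calls and the correlation could not be had from 1 array, and alternatives for gene levels were not run. On both arrays 78.3% of the probes were well above background, which limits the levels of the remaining, dim ones.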
